A study of Mus musculus with 92 samples.

Results

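The cytochrome P450 genes of families 1 to 4 were taken as the protein-coding rows of the 4 deposited count tables whose symbol reads Cyp1, Cyp2, Cyp3 or Cyp4 followed by a subfamily letter. The rule used no measured value and gave 81 genes of 54532 rows, of which 22046 are protein-coding. The study deleted Eif4g2, which encodes a translation initiation factor, in mouse intestine and intestinal cultures, and sequenced poly(A) RNA from 92 libraries in 21 groups. A separate experiment treated organoids with A-485, which blocks the acetyltransferase activity of CBP and EP300, coactivators that acetylate histones. Organoids are budding epithelial cultures grown from small intestine, and fetal spheroids are cyst-like epithelial cultures grown from fetal intestine.

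The first tissue set came from tamoxifen-treated mice with Rosa26(CreER), which is broadly active, collected on day 9. It held 5 crypt and 5 villus libraries with Eif4g2(flox/+), called heterozygous here, and 4 crypt and 5 villus libraries with Eif4g2(flox/flox), called homozygous. The second tissue set came from tamoxifen-treated mice with Vil1(CreER), which is active in intestinal epithelium, collected at 3 months. It held 4 crypt and 4 villus heterozygous libraries and 3 crypt and 6 villus homozygous libraries. Every tissue group therefore carried a CreER allele, tamoxifen and at least 1 floxed allele, and no tissue library with 2 intact Eif4g2 alleles was analysed here. The cultures all carried Rosa26(CreER) and were kept in ENR medium, which contains EGF, noggin and R-spondin. In the first organoid set, flox/flox organoids received DMSO or 4-hydroxytamoxifen (4-OHT, 0.5 µM for 24 hours), which activates CreER, with 3 libraries each. In the second organoid set, flox/flox, flox/+ and Eif4g2(+/+) organoids, the last called CreER-only, all received 4-OHT, with 4 libraries each. Spheroids were flox/flox, with 6 libraries each for DMSO and 4-OHT, or flox/+, with 5 libraries each. Both organoid sets and the spheroids were collected on day 6. The A-485 organoids were 4 lines, 1 of them Eif4g2(+/+) and 3 flox/flox that received no 4-OHT, each grown for 4 days in ENR with DMSO or with 3, 5 or 10 µM A-485. Ages of the mice and the intestinal segment of the tissue were not given in the sources used here.

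Cytochrome P450 enzymes are heme proteins, mostly of the endoplasmic reticulum, that insert an oxygen atom into their substrates with electrons passed on by the reductase Por and by cytochrome b5. Families 1 to 3 are best known for the oxidation of drugs and dietary compounds, and family 4 for the hydroxylation of fatty acids and eicosanoids. In the intestine these enzymes are made mainly by the absorptive enterocytes that cover the villi, where they act on compounds before these reach the liver. Transcription of Cyp1a genes is induced through the aryl hydrocarbon receptor Ahr, that of Cyp2b, Cyp2c and Cyp3a genes through the receptors Nr1i3 (CAR) and Nr1i2 (PXR), and that of Cyp4a genes through Ppara. Hnf4a is a nuclear receptor on which the basal expression of many of them depends.

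Of the 81 genes, 48 reached a mean of at least 1 CPM, the count scaled to library size, in a group, 28 stayed under 1 CPM in every group and 5 had no read in any library (Cyp2a22, Cyp2b23, Cyp2c50, Cyp2c54 and Cyp2j7). The 48 were 3 Cyp1, 25 Cyp2, 6 Cyp3 and 14 Cyp4 genes. Most lie in tandem clusters of close copies. On GRCm38, the Cyp2c cluster held 14 genes at chr19:39007019-40187333, of which 8 reached 1 CPM, and Cyp2c23, which also did, lies apart at chr19:44005022-44029208. The Cyp3a cluster at chr5:145345279-146113287 had 5 of 8, Cyp3a13 lies apart at chr5:137892932-137921619, and the Cyp2d cluster at chr15:82370527-82794294 had 5 of 8. The Cyp4f cluster at chr17:32468462-32947402 had 7 of 8, the Cyp4a cluster at chr4:115242084-115621602 had 4 of 8, and the Cyp2j cluster at chr4:96027534-96664154 had 4 of 8. The Cyp2b cluster at chr7:25897620-26772630 had 1 of 5, Cyp2b10.

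Reads could be exchanged between near-identical copies, so sharing was measured as the percentage of 100-base windows of a gene's transcripts that also occur in another gene. It was 90.8% for Cyp3a41a and 88.2% for Cyp3a41b, and 35.8% for Cyp4a12a. Among the genes described below it was 20.1% for Cyp4a32, 19.8% for Cyp2c68, 12.3% for Cyp2d10, 12.2% for Cyp4a10, 9.43% for Cyp4f16, 9.34% for Cyp2c66, 7.82% for Cyp2c65, 5.77% for Cyp4v3 and 5.75% for Cyp3a25. Values of these genes are uncertain to that extent, since how the authors' counting treated such reads was not given in the sources used here. Exons of Cyp2u1 (10.5% of bases), Cyp2s1 (5.27%) and Cyp2c55 (3.21%) overlap a gene on the opposite strand. The libraries were directional, but the strand setting of the counting was not given.

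RefSeq promoter windows (GRCm38.p6, 250 bases before to 50 bases after the start) were matched for 66 of the 81 genes and searched on both strands for short motifs. Some of the 66 genes had several windows, and each gene was counted once. CAAAGTCCA, a sequence typical of Hnf4a sites, was in 10 of the 66 genes (15.2%), against 150 of 27025 over all genes (0.555%). All 10 belonged to the Cyp2c and Cyp3a clusters, whose copies share ancestry, so they are not independent. GCGTG, the core of the xenobiotic response element bound by Ahr, was in 14 genes (21.2%) against 35.2% of all, and AGGTCA, a nuclear receptor half-site, in 19 (28.8%) against 18.1%. GTTAAT was in 10 (15.2%) against 8.24%, and TTTATG in 11 (16.7%) against 13.6%. A match describes letters in the window and is not evidence of binding. The stretches below, with the match in capitals, are shown because these genes are followed in the results and their matches lie close to the start.
Cyp2c65: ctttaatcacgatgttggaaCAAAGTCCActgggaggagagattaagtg
Cyp2c68: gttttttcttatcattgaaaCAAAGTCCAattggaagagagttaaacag
Cyp2c70: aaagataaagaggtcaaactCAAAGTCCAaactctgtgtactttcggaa
Cyp3a11: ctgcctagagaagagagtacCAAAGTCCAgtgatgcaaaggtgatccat
Cyp3a16: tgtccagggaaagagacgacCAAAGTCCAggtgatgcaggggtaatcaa
Cyp1a1: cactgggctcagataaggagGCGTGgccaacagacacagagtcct
They lie at chr19:39060870-39060918 on the plus strand for Cyp2c65, chr19:39741150-39741198 on the minus strand for Cyp2c68, chr19:40187322-40187370 on the minus strand for Cyp2c70, chr5:145879935-145879983 on the minus strand for Cyp3a11, chr5:145469794-145469842 on the minus strand for Cyp3a16 and chr9:57697539-57697583 on the plus strand for Cyp1a1. The 49 bases of Cyp3a16 were identical in Cyp3a41a and Cyp3a41b. In Cyp2c65, Cyp2c68, Cyp2c70 and Cyp3a11 the match begins 116, 77, 64 and 109 bases before the start, and in Cyp1a1 54 bases before it.

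Libraries held 8652040 to 37611126 counts, and the 81 genes together took 0.0346 to 2.14% of them. Eif4g2 was lower in every library with both alleles deleted than in any library of its comparison group: 48.3 to 61.7 CPM against 319 to 384 CPM in Rosa26 villi, 134 to 182 against 357 to 475 in Vil1 villi, 231 to 240 against 437 to 488 in Vil1 crypts, and 144 to 148 against 705 to 794 in the first organoid set. Replicate libraries of each group differed by more than sampling noise. Fabp6, an ileal bile acid carrier, separated libraries of one tissue group: Vil1 heterozygous animals 3 and 4 had at most 0.361 CPM in crypt and villus, whereas heterozygous animals 1 and 2 had 447 and 972 CPM in villi and the homozygous villi 284 to 770 CPM. Rosa26 villi had 0 to 0.0913 CPM of Fabp6, and Rosa26 crypts 73.1 to 386 CPM. Transcripts of the Y chromosome were present in every Rosa26 heterozygous library, in homozygous villi 1 and 2 and in homozygous crypt 1. The part of segment and sex in the Rosa26 and Vil1 results cannot be fully told apart from genotype or tissue layer, and where leaving out Vil1 heterozygous animals 3 and 4, a choice made after seeing the data, ended the call of a P450 gene described below, the value is given. Mitochondrial transcripts, a sign of RNA quality, took 8.55 ± 2.5% of counts in Rosa26 heterozygous crypts (SD, n = 5) and 18.9 ± 5.02% in homozygous crypts (n = 4), and 23.3 ± 6.07% (n = 4) and 35.7 ± 4.98% (n = 3) in Vil1 crypts. In villi the shares were 9.75 ± 8.73% and 5.03 ± 1.93% in the Rosa26 set (n = 5 each) and 17.1 ± 7.15% (n = 4) and 12.5 ± 5.99% (n = 6) in the Vil1 set. The 10 hepatocyte markers summed to at most 33.4 CPM in any library. In bulk RNA, fewer cells of a type and less RNA per cell cannot be told apart. Where the labels do not say that libraries came from separate animals or cultures, p-values measure only the spread between these libraries.

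In heterozygous villi the P450 RNA was dominated by a few genes of each role. Compared per kilobase of the deposited gene length, the highest levels in Rosa26 heterozygous villi were Cyp3a13 at 1407 ± 356, Cyp4f14 at 1314 ± 219, Cyp3a11 at 1141 ± 488 and Cyp2b10 at 853 ± 262 CPM per kb (mean ± SD, n = 5). Cyp2d26 followed at 721 ± 175, Cyp2c65 at 530.3 ± 147 and Cyp3a25 at 524 ± 173 CPM per kb. The first 3 overlapped within 1 SD, and the 10 highest genes held 89.6% of all P450 CPM. Vil1 heterozygous villi were led by Cyp4f14 at 778 ± 97.1, Cyp3a11 at 728 ± 136, Cyp3a25 at 672 ± 136 and Cyp3a13 at 628 ± 117 CPM per kb (n = 4), which did not differ beyond their spread. In cultures Cyp4f14 led the DMSO organoids of the A-485 set at 306 ± 78.6 CPM per kb (n = 4), and flox/+ spheroids with DMSO were led by Cyp2j6 at 119.9 ± 103 and Cyp2c65 at 103 ± 36.4 CPM per kb (n = 5).

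Crypts, which hold the stem and dividing cells, had far less P450 RNA than villi. The summed level was 744 to 1165 CPM in Rosa26 heterozygous crypts and 15307 to 31545 CPM in the villi of the same animals, and 635 to 1559 CPM against 13188 to 17668 CPM in the Vil1 set. In the Rosa26 set 34 of 39 genes tested were lower in crypts and 1 was higher (edgeR adjusted p below 0.05). Of all genes tested 77.1% were called, 36.4% lower and 40.6% higher. In the Vil1 set 26 of 36 were lower and 3 were higher, where 67.9% of all genes were called, 32.7% lower and 35.2% higher. Cyp3a11, a drug-oxidising family 3 enzyme, was lower by 6.06 on the log2 scale in Rosa26 and by 5.15 in Vil1 crypts (edgeR adjusted p = 6.98e-08 and 2.22e-05). Cyp3a16, whose promoter stretch is printed above, had 1.19, 3.25, 0.802, 6.07 and 1.95 CPM in Rosa26 heterozygous villi and no read in their crypts, at least 165-fold lower against 3 counts over the group. The 1 member higher in Rosa26 crypts was Cyp2e1, which oxidises ethanol and small solvents. It had 3.25, 10.5, 4.31, 5.77 and 4.88 CPM in Rosa26 heterozygous crypts and 0, 0.0889, 0, 0.0537 and 0.0557 CPM in their villi (log2 fold change 7.02 with SE 0.57, edgeR adjusted p = 2.54e-07). Every crypt library lay above every villus library. In the Vil1 set the same difference was 6.45 (edgeR adjusted p = 1.93e-06), also without overlap. Cyp4f15 and Cyp4a32 were the other 2 higher genes in Vil1 crypts, both not called without heterozygous animals 3 and 4 (edgeR adjusted p = 0.0601 and 0.328), and with the animal as a block Cyp4a32 lost its call, at 0.94 (edgeR adjusted p = 0.0829), while Cyp3a59 was called lower, at -1.45 (edgeR adjusted p = 0.0389). The crypt stem and transit markers moved with tissue layer, summing to 4471 to 7339 CPM in Rosa26 heterozygous crypts and 118 to 200.4 CPM in villi.

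More P450 genes were called lower than higher with homozygous Eif4g2 deletion in each of the 4 tissue comparisons. In Rosa26 crypts, however, the called share was near that of all genes and the direction changed with a covariate, as given below. In Rosa26 villi 18 of 37 genes tested fell and 1 rose (51.4% of members called, against 33.2% of all genes tested, 18.2% lower and 15% higher). The median log2 fold change was -1.71 over the members and -0.005 over all genes. Of the 19, 16 showed no overlap between heterozygous and homozygous libraries. Of all 4504 genes called, 2868 showed none, which is 21.1% of those tested. In Vil1 villi 19 of 34 fell and 6 rose (73.5%, against 42.5% of all genes, 21.6% lower and 20.9% higher), with a median of -1.03 against 0.051. Of the 25, 24 showed no overlap, and of all 6422 genes called 4395 showed none, which is 29.1% of those tested. In Vil1 crypts 24 of 34 fell and none rose (70.6%, against 29.3%, 17.7% lower and 11.6% higher), with a median of -2.27 against 0.013. None of the 24 overlapped, and neither did 4868 of all 4960 genes called there, which is 28.7% of those tested. An unadjusted p under 0.05 was reached by 26 members and by 6798 of all 16954 genes tested. The count was 14 without homozygous crypt 1, when 18.3% of all genes were called, and 14 without homozygous crypt 2, when 20.8% were. The higher mitochondrial share of homozygous crypts, given above, moved with these calls and with those of Rosa26 crypts, and its part was not tested. In Rosa26 crypts 8 of 33 fell and none rose, that is 24.2% of members called against 20.2% of all genes, of which 11.6% lower and 8.63% higher. The median there was -0.21 over the members and 0.044 over all genes. The count of 8 became 4 without heterozygous crypt 3, 5 without heterozygous crypt 2, 4 or 5 or homozygous crypt 4, and 13 without homozygous crypt 5. The share of all genes called in those fits is not given here. These counts therefore do not tell a change of the members from a change of the whole fit. With Y-linked transcripts as a covariate 6 members were called in Rosa26 crypts and all 6 were higher (17.2% of all genes were called), a fit in which homozygous crypt 1 is the 1 homozygous crypt library with such transcripts. None of the 8 falls kept its call in that fit.

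The summed P450 level overlapped between genotypes in villi. It was 15307 to 31545 CPM in Rosa26 heterozygous villi and 10093 to 26229 CPM in homozygous villi, and 13188 to 17668 against 9185 to 14869 CPM in Vil1 villi. Mature enterocyte markers did not separate the genotypes in villi: the 20 markers summed to 96415 to 130690 CPM in Rosa26 heterozygous and 110914 to 161204 CPM in homozygous villi, and in Vil1 villi to 67505 to 88194 and 65098 to 116487 CPM. Of the 20, 5 rose and 3 fell in Rosa26 villi, and 2 rose and 7 fell in Vil1 villi, with medians of 0.03 and -0.07. Goblet markers fell in 4 of 8 and 8 of 8, and their sums were 7426 to 17739 against 2314 to 11752 CPM in Rosa26 villi and 9463 to 15020 against 1606 to 2773 CPM in Vil1 villi. Tuft markers fell in 6 of 7 tested in Rosa26 villi and 7 of 7 in Vil1 villi, with medians of -2.79 and -4.16, and their sums were 69.9 to 380.04 against 20.8 to 68.4 CPM and 77.5 to 125 against 4.74 to 9.00 CPM. Enteroendocrine markers fell in 6 of 8 and 9 of 9, with medians of -2.01 and -2.76 and sums of 470.1 to 837 against 60.4 to 379.97 CPM and 486 to 891 against 66.2 to 128 CPM. Paneth markers fell in 1 of 6 and 5 of 7, and immune cell markers in 5 of 12 and 6 of 12, where 1 also rose in Vil1 villi. Stromal and endothelial markers rose in none of 13 and 4 of 7. In Vil1 crypts the mature enterocyte sum was 3868 to 8441 CPM in heterozygous and 2397 to 4687 CPM in homozygous libraries, and 9 of the 20 fell. In crypts tuft markers fell in 5 of 7 (Rosa26) and 6 of 7 (Vil1), enteroendocrine markers in 9 of 10 in each set, and Paneth markers in 7 of 8 in each set. The part of these cell types in the P450 results was not tested.

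Among the foreign-compound enzymes of family 1, Cyp1a1, the classic target of Ahr, had 484, 419.7, 82.2, 183 and 171 CPM in the 5 Rosa26 heterozygous villi and 27.5, 2.46, 16.9, 71.2 and 12.6 CPM in the 5 homozygous villi (log2 fold change -3.40 with SE 0.82, edgeR adjusted p = 0.0114). The groups did not overlap, although heterozygous villus 3 and homozygous villus 4 lay close together. In Vil1 villi it had 59.6, 34.1, 45.9 and 41.4 CPM in heterozygous libraries, and the 6 homozygous libraries had a lowest value of 9.83, a median of 23.8 and a highest value of 29.9 CPM (log2 fold change -1.02 with SE 0.24, edgeR adjusted p = 0.00391). These groups did not overlap either. Cyp1a2, at a mean of 2.03 CPM in Rosa26 heterozygous villi, fell in Rosa26 villi by 4.81 on the log2 scale. In Vil1 crypts Cyp1a1 stayed below 3 CPM in every library (log2 fold change -2.26 with SE 0.60, edgeR adjusted p = 0.0228), a call that was lost without heterozygous crypt 1, homozygous crypt 1 or homozygous crypt 2, and without heterozygous animals 3 and 4 (adjusted p = 0.0828). Cyp1b1, which oxidises estradiol and polycyclic hydrocarbons, was not called in Rosa26 crypts or villi and was too low to be tested in the Vil1 set. In Rosa26 crypts it ranged over 0.716 to 22.4 and 1.29 to 86.9 CPM while stromal and endothelial markers summed to 29.6 to 936 and 42.7 to 2199 CPM.

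**Figure D1:**
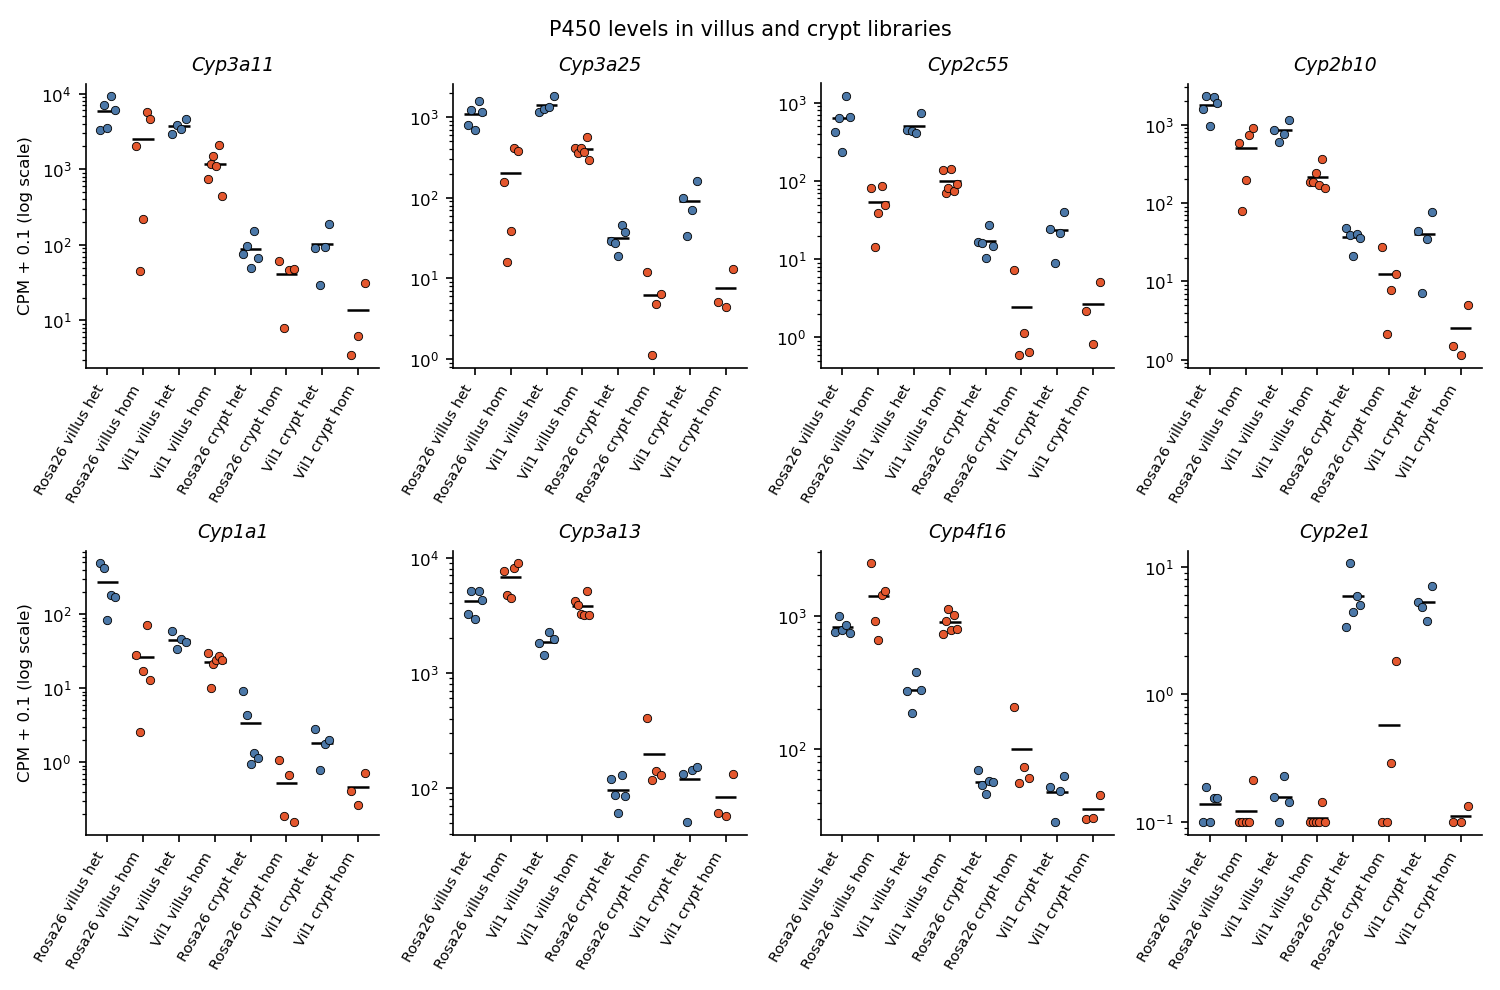
Levels of 8 P450 genes in the tissue libraries, in CPM plus 0.1 on a log axis, for crypts and villi of the Rosa26 and Vil1 sets. Each point is a library, the bars are group means, blue is heterozygous and orange homozygous; Cyp2c55 and Cyp1a1 separate the genotypes in both villus sets, Cyp3a13 and Cyp4f16 lie higher in Vil1 homozygous villi, and Cyp2e1 is seen in crypts.

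Cyp3a and Cyp2b enzymes oxidise a broad range of drugs, and their genes differed in direction. Cyp3a11 had 3277, 7018, 3486, 9187 and 6086 CPM in Rosa26 heterozygous villi and 2015, 44.6, 216, 5682 and 4573 CPM in homozygous villi, a difference that did not pass the test (log2 fold change -1.25 with SE 1.00, edgeR adjusted p = 0.369). Homozygous villi 2 and 3 were far below the others, and homozygous villi 4 and 5 lay within the heterozygous range. In Vil1 villi the heterozygous libraries had 2949, 3831, 3453 and 4596 CPM, and the homozygous libraries a lowest value of 446, a median of 1138 and a highest value of 2085 CPM, without overlap (log2 fold change -1.68 with SE 0.34, edgeR adjusted p = 0.00178). Cyp3a25 had 803, 1222, 687, 1591 and 1151 CPM in Rosa26 heterozygous and 158, 15.97, 38.5, 414 and 377 CPM in homozygous villi (log2 fold change -2.48 with SE 0.79, edgeR adjusted p = 0.0358). The groups did not overlap, but the call was lost in 6 of 10 fits that each left out 1 library, with the highest adjusted p, 0.0707, without homozygous villus 1. In Vil1 villi Cyp3a25 fell, with 1161 to 1809 CPM in heterozygous and 297 to 570.5 CPM in homozygous libraries (log2 fold change -1.81 with SE 0.18, edgeR adjusted p = 7.22e-06).

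Cyp3a13 moved the other way. In Vil1 villi it had 1801, 1416, 2238 and 1974 CPM in heterozygous libraries and a lowest value of 3178, a median of 3533 and a highest value of 5119 CPM in homozygous ones (log2 fold change 1.01 with SE 0.19, edgeR adjusted p = 0.0009). Every homozygous library lay above every heterozygous library. In Rosa26 villi the values were 3264, 5171, 2906, 5169.7 and 4280.1 and 7579.6, 4692, 4436, 8189 and 8894 CPM, with overlap, and the difference did not pass the test (log2 fold change 0.66 with SE 0.24, edgeR adjusted p = 0.0529). Without Vil1 heterozygous animals 3 and 4 the Vil1 difference was 1.23 (adjusted p = 0.00533). Of the less abundant Cyp3a genes, Cyp3a44 fell by 6.04 and 4.27 and Cyp3a59 by 3.46 and 2.88 on the log2 scale in Rosa26 and Vil1 villi. In crypts Cyp3a25 fell by 2.34 in the Rosa26 set (edgeR adjusted p = 0.021, lost without homozygous crypt 4) and by 3.62 in the Vil1 set (edgeR adjusted p = 0.0135, lost without homozygous crypt 1 or 2). The Rosa26 crypt call was also lost with Y-linked transcripts as a covariate.

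Cyp2b10, the main target of Nr1i3, had 1565, 2288, 969.8, 2276 and 1909 CPM in Rosa26 heterozygous villi and 576, 78.2, 195, 748 and 903 CPM in homozygous villi (log2 fold change -1.89 with SE 0.58, edgeR adjusted p = 0.0314). The groups did not overlap, and the call was lost in 5 of 10 fits with 1 library left out, with the highest adjusted p, 0.0669, without heterozygous villus 2. Vil1 heterozygous villi had 865, 591, 765 and 1158 CPM, and the homozygous villi a lowest value of 155, a median of 187 and a highest value of 366 CPM (log2 fold change -1.97 with SE 0.24, edgeR adjusted p = 4.39e-05). This difference held its call in every fit that left out 1 library. In Vil1 crypts Cyp2b10 went from 43.8, 6.99, 34.3 and 77.2 to 1.38, 1.05 and 4.86 CPM (log2 fold change -4.08 with SE 1.03, edgeR adjusted p = 0.0303), lost in 4 of 7 such fits, with the highest adjusted p, 0.114, without homozygous crypt 1, and without heterozygous animals 3 and 4 (adjusted p = 0.0822).

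The Cyp2c genes, which encode epoxygenases and hydroxylases of arachidonic acid, retinoids and drugs, were called lower or not called in the 4 tissue comparisons. In Vil1 villi 8 of 8 tested fell, and their log2 fold changes had a median of -2.90. In Rosa26 villi 6 of 8 fell, with a median of -2.87, in Vil1 crypts 6 of 7 and in Rosa26 crypts 4 of 7. Cyp2c55 had 425, 639.5, 238, 1207 and 658 CPM in Rosa26 heterozygous villi and 82.1, 14.1, 39.2, 85.01 and 49.3 CPM in homozygous villi (log2 fold change -3.59 with SE 0.56, edgeR adjusted p = 0.00135). The highest homozygous library lay below the lowest heterozygous one. Vil1 heterozygous villi had 446, 440.4, 413 and 749.9 CPM, and homozygous villi a lowest value of 71.1, a median of 86.6 and a highest value of 143 CPM (log2 fold change -2.39 with SE 0.23, edgeR adjusted p = 6.33e-06). In crypts Cyp2c55 was called in the Rosa26 set (log2 fold change -2.81 with SE 0.83, edgeR adjusted p = 0.0426) and in the Vil1 set (log2 fold change -3.21 with SE 0.82, edgeR adjusted p = 0.0316). These crypt calls were lost in 7 of 9 and 4 of 7 fits with 1 library left out, with the highest adjusted p, 0.0892, without Rosa26 homozygous crypt 4 and 0.117 without Vil1 homozygous crypt 1. The Vil1 crypt call was also lost without heterozygous animals 3 and 4 (adjusted p = 0.0959), and the Rosa26 crypt call with Y-linked transcripts as a covariate.

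Cyp2c65 had 844, 1136, 715, 1448 and 969.9 CPM in Rosa26 heterozygous villi and 273, 97.1, 137, 456 and 382 CPM in homozygous villi (log2 fold change -1.97 with SE 0.41, edgeR adjusted p = 0.00487), without overlap. In Rosa26 crypts it had 59.1, 51.5, 39.2, 54.9 and 50.8 and 29.1, 6.27, 11.6 and 18.4 CPM, again without overlap (log2 fold change -1.59 with SE 0.37, edgeR adjusted p = 0.0175). In the Vil1 set it fell by 1.35 in villi and by 2.27 in crypts (edgeR adjusted p = 1.04e-05 and 0.00549). Cyp2c68 fell in all 4 tissue comparisons, by 3.29 in Rosa26 villi, 2.35 in Rosa26 crypts, 2.79 in Vil1 villi and 4.50 in Vil1 crypts on the log2 scale, with edgeR adjusted p of 0.000644, 0.003, 7.71e-07 and 0.000567. Its homozygous Rosa26 villi had 8.44 to 43.1 CPM and its heterozygous ones 154 to 261 CPM. The Rosa26 crypt calls of Cyp2c65 and Cyp2c68 were both lost with Y-linked transcripts as a covariate. Cyp2c66 fell in Vil1 villi (log2 fold change -2.73 with SE 0.25, edgeR adjusted p = 5.39e-06) but did not pass the test in Rosa26 villi (log2 fold change -1.85 with SE 0.69, edgeR adjusted p = 0.0638). Cyp2c29 fell in Vil1 villi, with 23.6 to 165 CPM in heterozygous and 2.92 to 11.1 CPM in homozygous libraries (log2 fold change -3.45 with SE 0.54, edgeR adjusted p = 0.000849), and in Rosa26 villi it overlapped and was not called (log2 fold change -1.71 with SE 1.26, edgeR adjusted p = 0.327). Cyp2c70, which hydroxylates bile acids in mice, had no read in homozygous Rosa26 crypts and a mean of 0.379 CPM in heterozygous crypts, at least 21.1-fold lower against 3 counts over the group.

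Cyp2d26, the leading Cyp2d gene, had 1104, 1642, 861, 1509.8 and 1339 CPM in Rosa26 heterozygous villi and 346, 135, 257, 370.2 and 816 CPM in homozygous villi, without overlap (log2 fold change -1.78 with SE 0.41, edgeR adjusted p = 0.00823). Vil1 heterozygous villi had 514, 518, 567 and 569 CPM, and homozygous villi a lowest value of 178, a median of 259 and a highest value of 390.2 CPM (log2 fold change -1.04 with SE 0.21, edgeR adjusted p = 0.00151). Every homozygous library lay below every heterozygous one in both sets. In Vil1 crypts Cyp2d26 fell by 2.79 (edgeR adjusted p = 0.00619). Cyp2e1 in Vil1 crypts had 5.23, 4.75, 3.68 and 6.91 CPM in heterozygous and 0, 0 and 0.0347 CPM in homozygous libraries (log2 fold change -8.55 with SE 0.62, edgeR adjusted p = 9.88e-05). In Rosa26 crypts it was also lower without overlap, 0, 0, 0.188 and 1.73 against 3.25, 10.5, 4.31, 5.77 and 4.88 CPM, but the difference did not pass the test (log2 fold change -3.51 with SE 1.14, edgeR adjusted p = 0.057). Crypt stem and transit markers summed to 4471 to 7339 CPM in heterozygous and 467 to 1408 CPM in homozygous Rosa26 crypts, and to 5903 to 6563 and 875 to 1242 CPM in Vil1 crypts, and their part in the Cyp2e1 result was not tested.

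Other Cyp2 genes act on eicosanoids, retinoids and vitamin D. Cyp2j6, an epoxygenase of arachidonic acid, did not pass the test in Rosa26 villi (log2 fold change 0.50 with SE 0.56, edgeR adjusted p = 0.528) or Vil1 villi (log2 fold change 0.47 with SE 0.26, edgeR adjusted p = 0.172), and it fell in Vil1 crypts from 46.4, 37.98, 49.7 and 54.8 to 26.9, 25.7 and 33.2 CPM (log2 fold change -0.72 with SE 0.14, edgeR adjusted p = 0.00684). Cyp2s1, which acts on eicosanoids and retinoids, had 122, 178, 120.3, 191 and 155 CPM in Rosa26 heterozygous villi and 113, 73.5, 118, 96.3 and 94.8 CPM in homozygous villi (log2 fold change -0.67 with SE 0.16, edgeR adjusted p = 0.00789). All homozygous libraries were below all heterozygous ones, by a small margin. In Vil1 villi Cyp2s1 fell by 0.82 (edgeR adjusted p = 0.00359, and 0.0732 without heterozygous animals 3 and 4), and in Vil1 crypts by 1.03 (edgeR adjusted p = 0.00406). Cyp2r1, a vitamin D 25-hydroxylase, fell in Vil1 villi at low levels with overlap (log2 fold change -1.79 with SE 0.46, edgeR adjusted p = 0.00694), a call lost without heterozygous animals 3 and 4 (adjusted p = 0.0592).

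Family 4 enzymes hydroxylate fatty acids at or near the methyl end. In Vil1 villi Cyp4a10 and Cyp4v3 fell while 4 Cyp4f genes rose. Cyp4a10, a target of Ppara, had 20.98, 29.7, 12.9, 33.5 and 18.9 CPM in Rosa26 heterozygous villi and 0, 0, 0.0456, 0.0925 and 0.411 CPM in homozygous villi (log2 fold change -7.56 with SE 0.60, edgeR adjusted p = 2.11e-05). The groups were far apart. In Vil1 villi it had 3.82, 5.95, 2.83 and 7.18 CPM, and the homozygous libraries a lowest value of 0, a median of 0.131 and a highest value of 0.559 CPM (log2 fold change -4.75 with SE 0.60, edgeR adjusted p = 5.28e-05). Cyp4a32 fell in Rosa26 villi by 2.05, in Rosa26 crypts by 2.75 and in Vil1 crypts by 4.46 on the log2 scale. Its Rosa26 crypt call was lost with Y-linked transcripts as a covariate. Cyp4v3, which hydroxylates medium-chain fatty acids, had 1394, 1403, 1408 and 1928 CPM in Vil1 heterozygous villi and a lowest value of 249, a median of 504 and a highest value of 756 CPM in homozygous villi (log2 fold change -1.59 with SE 0.27, edgeR adjusted p = 0.000588). In Rosa26 villi the values were 1109.6, 1925, 1030.1, 1629 and 1743 and 533, 198, 299.7, 789 and 1184 CPM (log2 fold change -1.35 with SE 0.44, edgeR adjusted p = 0.037). Homozygous villus 5 overlapped the heterozygous range, and the call was lost in 5 of 10 fits with 1 library left out, with the highest adjusted p, 0.0822, without heterozygous villus 2.

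Of 7 Cyp4f genes tested in Vil1 villi 4 rose and none fell, and in Rosa26 villi none of 7 was called. Cyp4f16 had 272, 188, 378 and 278 CPM in Vil1 heterozygous villi and a lowest value of 734, a median of 850.4 and a highest value of 1127 CPM in homozygous villi (log2 fold change 1.66 with SE 0.21, edgeR adjusted p = 3.81e-05). The groups were well apart. In Rosa26 villi Cyp4f16 had 751, 991, 788, 856 and 748 and 2459.7, 920.3, 655, 1433 and 1533 CPM, with overlap and no call (log2 fold change 0.72 with SE 0.29, edgeR adjusted p = 0.0833). Cyp4f14, which inactivates leukotriene B4 and was among the most abundant members, had 2023, 1625, 1722 and 2111 CPM in Vil1 heterozygous villi and a lowest value of 2114, a median of 2597 and a highest value of 3086 CPM in homozygous villi (log2 fold change 0.45 with SE 0.15, edgeR adjusted p = 0.0303). That call was lost in 5 of 10 fits with 1 library left out, with the highest adjusted p, 0.0934, without heterozygous villus 2, and was also lost without heterozygous animals 3 and 4 (adjusted p = 0.111). Cyp4f40 rose by 0.62 (edgeR adjusted p = 0.00849, and 0.07 without heterozygous animals 3 and 4) and Cyp4f17 by 1.32 (edgeR adjusted p = 0.00587). Cyp4b1, a hydroxylase of fatty acids that also activates furans, was the only member that rose in Rosa26 villi, from 212, 331, 190.3, 361 and 256 to 689, 338, 371, 601 and 669 CPM (log2 fold change 0.94 with SE 0.24, edgeR adjusted p = 0.0127). Homozygous villus 2 lay within the heterozygous range. In Vil1 crypts Cyp4b1 fell (log2 fold change -2.08 with SE 0.41, edgeR adjusted p = 0.0084), and Cyp4f15 had no read in homozygous crypts against 2.02 CPM, at least 65.3-fold lower against 3 counts over the group.

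Whether deletion acted differently in villus and crypt was tested as a difference of effects. In the Vil1 set 14 of 39 members were called (35.9%, against 15.5% of all genes, 9.38% higher and 6.14% lower), 13 of them less lowered or more raised in villi than in crypts. For Cyp4f16 the difference was 2.12, from an effect of 1.66 in villi and -0.44 in crypts, and for Cyp3a13 it was 1.56, from 1.01 and -0.53. The count was 7 without homozygous crypt 1 or 2, when 7.92 and 8.96% of all genes were called. It was 3 without heterozygous animals 3 and 4, when 3.62% were. Cyp4f16 kept its call there at 2.15 (adjusted p = 0.0158), as did Cyp2j9 and Cyp4f40, and the other 11 did not, among them Cyp3a13 at 1.38 (adjusted p = 0.158). In the Rosa26 set 1 of 42 members was called (2.38%, against 11.5% of all genes, 6.68% higher and 4.86% lower), Cyp4a10, which fell more in villi.

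Most P450 genes tested were lower in organoids with deletion. With 4-OHT against DMSO in the first organoid set, 28 of 40 members fell and 1 rose (72.5%, against 35.4% of all genes tested, 17.2% lower and 18.2% higher), with a median of -1.64 over the members and 0.028 over all genes. None of the 29 overlapped, and neither did 5398 of all 5422 genes called, which is 35.3% of those tested. In the second set flox/flox organoids had 24 of 37 lower than flox/+ (64.9%, against 46.8% of all genes, 24.3% lower and 22.6% higher). They had 26 of 37 lower than CreER-only (70.3%, against 45.3%, 23.5% lower and 21.9% higher), and none was higher in either comparison. These 2 comparisons share the flox/flox libraries. Flox/+ against CreER-only called 1 member of 37, Cyp2c29, as lower, where 0.113% of all genes were called, 0.0633% lower and 0.0492% higher. The summed level was 2121 CPM in deleted and 4314 CPM in DMSO organoids of the first set, and 2169, 2515 and 3004 CPM in flox/flox, flox/+ and CreER-only organoids of the second (group means). Mature enterocyte markers summed to 9748 to 14400 CPM with 4-OHT against 18429 to 24789 CPM with DMSO in the first set, and to 9170 to 14645 CPM in flox/flox against 8441 to 15776 CPM in flox/+ and 10632 to 17304 CPM in CreER-only in the second, where the ranges overlapped. Of the 20 markers 13 fell and 1 rose in the first set, with a median of -1.15. In the second, 6 fell and 1 rose against flox/+ and 7 fell and none rose against CreER-only, with medians of -0.08 and -0.57. Enteroendocrine markers fell in 9 of 9 in the first set and 8 of 9 in both comparisons of the second. The part of these cell types was not tested.

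Cyp3a11 had 129, 110.0 and 397 CPM with DMSO and 28.7, 23.2 and 43.4 CPM with 4-OHT (log2 fold change -2.74 with SE 0.53, edgeR adjusted p = 0.00724). In the second set it had 59.1, 50.02, 79.3 and 71.6 CPM in flox/flox, 369.6, 260.4, 144 and 125 CPM in flox/+ and 286, 223, 305 and 196 CPM in CreER-only organoids. The 4-OHT libraries lay below the DMSO libraries in the first set, and flox/flox lay below both other genotypes in the second, with a log2 fold change of -1.79 against flox/+ (edgeR adjusted p = 0.00207). Cyp3a25 fell by 2.32 in the first set and by 1.55 and 1.81 in the second. Cyp3a13 was not called in either, with 267, 313, 411 and 399 CPM in flox/flox and 313, 252, 173 and 159 CPM in flox/+ organoids (log2 fold change 0.63 with SE 0.26, edgeR adjusted p = 0.0672). Cyp2b10 fell from 137, 114 and 243 to 68.9, 45.8 and 52.3 CPM (log2 fold change -1.56 with SE 0.30, edgeR adjusted p = 0.00662), and by 1.25 and 1.78 in the second set.

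Cyp2c55 had 91.7, 78.8 and 61.8 CPM with DMSO and 26.96, 30.8 and 15.4 CPM with 4-OHT (log2 fold change -1.67 with SE 0.27, edgeR adjusted p = 0.00331). In the second set it had 8.49, 10.7, 14.4 and 15.6 CPM in flox/flox and 30.9, 37.4, 51.6 and 33.2 CPM in flox/+ organoids (log2 fold change -1.63 with SE 0.30, edgeR adjusted p = 0.00133), again without overlap. Cyp2c65 fell by 1.61 in the first set (edgeR adjusted p = 0.000444) and by 0.49 in the second against flox/+ (edgeR adjusted p = 0.0479), the latter lost in 4 of 8 fits with 1 library left out, with the highest adjusted p, 0.13, without flox/+ library 1. Cyp2c29 had 36.6, 37.8, 37.2 and 31.1 CPM in flox/flox, 69.5, 67.2, 61.02 and 58.5 CPM in flox/+ and 98.6, 119.9, 126 and 90.6 CPM in CreER-only organoids. The 3 genotypes did not overlap. Flox/flox was lower than flox/+ by 0.84 (edgeR adjusted p = 1.53e-05), and flox/+ had a log2 fold change of -0.77 against CreER-only (edgeR adjusted p = 0.0146). The latter call was lost without flox/+ library 3 or 4 or CreER-only library 3, with the highest adjusted p, 0.0694, without flox/+ library 4. Cyp2d26 fell from 396, 388 and 474 to 77.1, 131 and 116 CPM (log2 fold change -1.96 with SE 0.20, edgeR adjusted p = 0.000778), and all 5 Cyp2d genes tested fell in that set. Cyp2e1 fell by 3.43 in the first set and by 1.51 and 1.55 in the second, from levels below 9 CPM.

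Cyp4a10 fell from 0.688, 1.04 and 0.443 to 0.0911, 0 and 0 CPM (log2 fold change -4.37 with SE 0.82, edgeR adjusted p = 0.00637), and by 4.05 and 3.61 in the second set. Cyp4f14 went from 891, 904 and 1215 to 355, 715 and 634 CPM (log2 fold change -0.82 with SE 0.26, edgeR adjusted p = 0.0452), a call lost in 4 of 6 fits with 1 library left out, with the highest adjusted p, 0.128, without DMSO library 3. Cyp4f16 fell by 0.94 (edgeR adjusted p = 0.012), and Cyp4v3 by 1.05 in the first set and by 0.65 against flox/+ in the second. The single member that rose was Cyp4a29 (log2 fold change 2.48 with SE 0.54, edgeR adjusted p = 0.0111). Cyp1b1 fell by 2.11 in the first set and by 1.55 and 3.11 in the second, where the CreER-only libraries had 2.34 to 7.02 CPM. Cyp2s1 fell from 367, 352 and 281 to 112, 192 and 101 CPM in the first set (log2 fold change -1.30 with SE 0.25, edgeR adjusted p = 0.00697), and in the second it was not called against flox/+ (log2 fold change 0.21 with SE 0.25, edgeR adjusted p = 0.528). With the replicate number as a block, Cyp2j6 was also called lower in the first set, at -0.47 (edgeR adjusted p = 0.0339), and Cyp4f17 higher, at 0.79 (edgeR adjusted p = 0.0117).

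**Figure D2:**
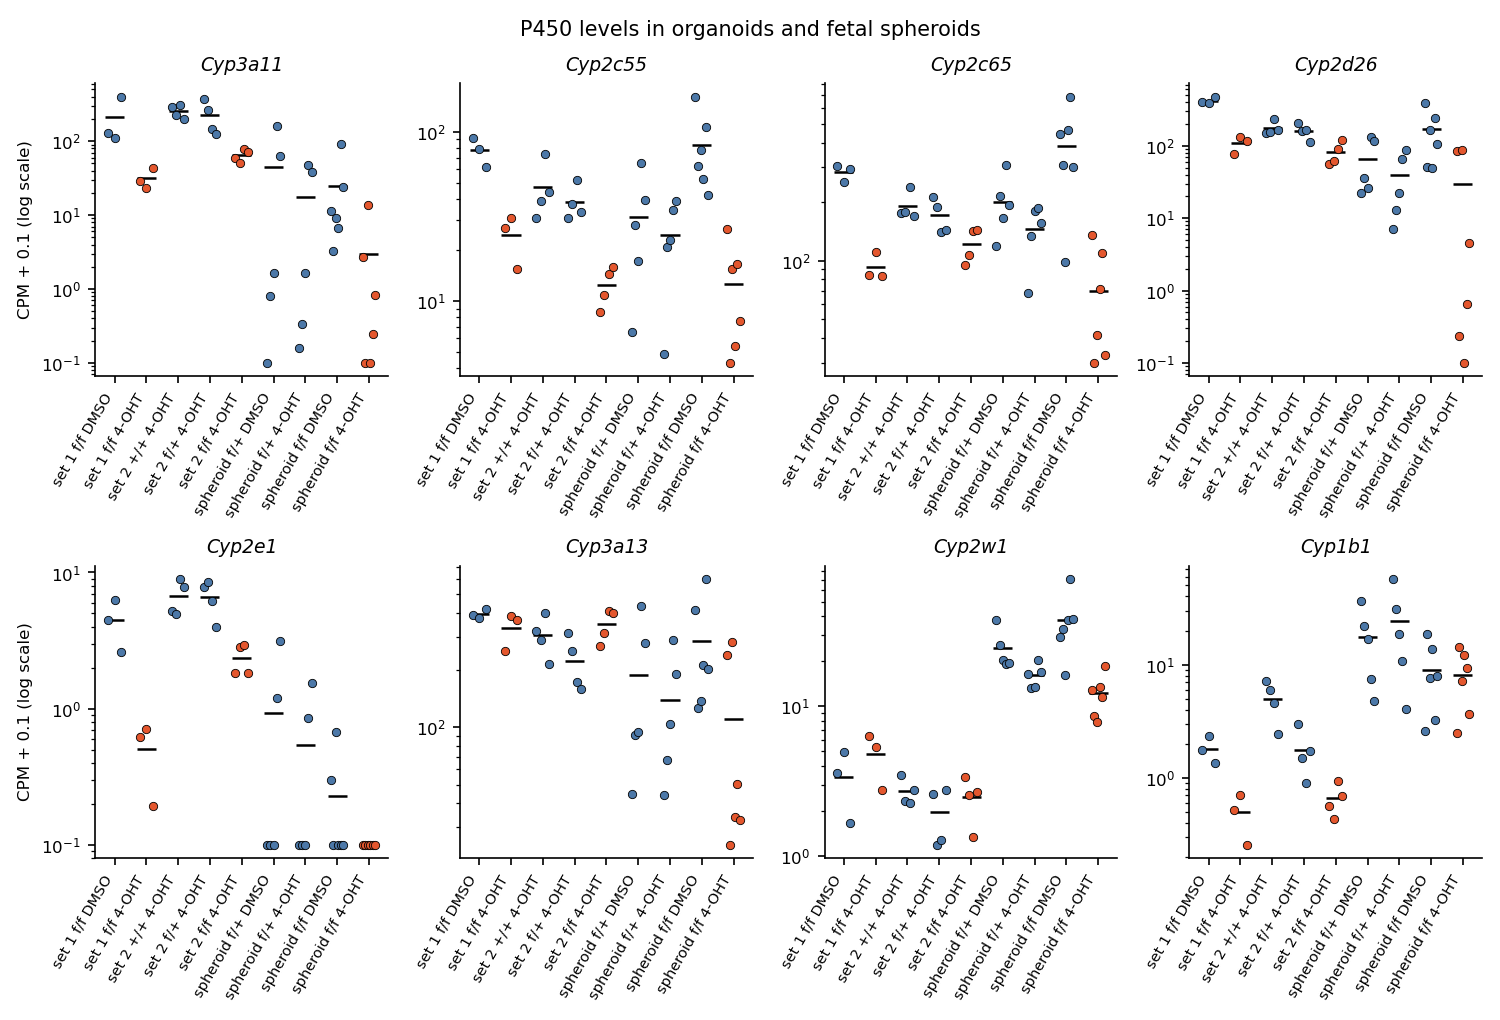
Levels of 8 P450 genes in the organoid and spheroid libraries, in CPM plus 0.1 on a log axis. Each point is a library and each bar a group mean, with orange for flox/flox cultures that received 4-OHT; Cyp3a11, Cyp2c55 and Cyp2d26 are lower there in both organoid sets, and Cyp2w1 and Cyp1b1 are higher in spheroids than in organoids.

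Fetal spheroids had a different mixture of P450 genes. Against flox/+ organoids with the same 4-OHT, flox/+ spheroids had 6 of 35 members higher and 9 lower (42.9%, against 47.9% of all genes, 25.1% higher and 22.8% lower), a share near the background. Cyp2w1, a fetal and tumor-associated P450, had 16.5, 13.3, 13.3, 20.2 and 16.9 CPM in spheroids and 2.51, 1.08, 1.19 and 2.66 CPM in organoids (log2 fold change 3.22 with SE 0.32, edgeR adjusted p = 9.18e-05). Cyp1b1 had 57.2, 31.2, 18.7, 10.6 and 3.99 and 2.90, 1.39, 0.792 and 1.61 CPM (log2 fold change 3.98 with SE 0.79, edgeR adjusted p = 0.00316), and Cyp2c29 had 0.749, 4.72, 3.49, 5.92 and 3.88 and 69.5, 67.2, 61.02 and 58.5 CPM (log2 fold change -3.96 with SE 0.43, edgeR adjusted p = 0.000145). None of these 3 genes overlapped between the cultures. In flox/+ spheroids, libraries 4 and 5 held most of the Cyp3a11 and Cyp4f14 RNA, with Cyp4f14 at 0.576, 1.04, 4.04, 148 and 142 CPM. Stromal and endothelial markers reached 193 CPM in flox/+ spheroids with 4-OHT and 2.64 CPM in flox/+ organoids, and their part in the Cyp1b1 result was not tested.

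In spheroids 4-OHT lowered P450 genes where both Eif4g2 alleles were floxed. With 4-OHT against DMSO in flox/flox spheroids, 16 of 36 members fell and none rose (44.4%, against 19.1% of all genes, 10% lower and 9.01% higher), with a median of -2.48 against -0.023. An unadjusted p under 0.05 was reached by 18 members and by 4735 of all 15032 genes tested. With the replicate number as a block, which pairs these libraries, 30 of 36 members were called and 42.7% of all genes. With only these 2 groups in the fit 8 of 25 members were called and 14.7% of all genes. In flox/+ spheroids 4-OHT called no member of 36 and no gene at all (0%) in the fit without the block. At an unadjusted p under 0.05 that fit had 0 members and 15 genes, and DESeq2 also called none. The flox/+ libraries are paired too, with deviation correlations of 0.626 to 0.857, and a fit without the block can miss differences there. With the block no member gained a call in flox/+ spheroids, and the share of all genes called in that fit is not given here. The difference of the 4-OHT effect between the genotypes is given below, without and with the block. With 4-OHT, flox/flox spheroids had 8 of 36 lower than flox/+ (22.2%, against 10.5%, 6.13% lower and 4.36% higher), and with DMSO none was called, with 5 members and 1084 genes at an unadjusted p under 0.05 and none by DESeq2.

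Cyp2c65 had a lowest value of 98.3, a median of 374 and a highest value of 686 CPM over the 6 DMSO spheroid libraries and a lowest value of 29.8, a median of 56.6 and a highest value of 135 CPM over the 6 with 4-OHT (log2 fold change -2.45 with SE 0.43, edgeR adjusted p = 0.000567). DMSO library 3 was low and alone overlapped the 4-OHT range. Cyp2c55 had a lowest value of 42.05, a median of 70.4 and a highest value of 161 CPM and a lowest value of 4.19, a median of 11.4 and a highest value of 26.6 CPM, without overlap (log2 fold change -2.74 with SE 0.57, edgeR adjusted p = 0.00223). Cyp2b10 had a lowest value of 2.37, a median of 23.2 and a highest value of 86.95 CPM and a lowest value of 0, a median of 0.724 and a highest value of 2.92 CPM, with DMSO library 3 in the 4-OHT range (log2 fold change -4.76 with SE 0.84, edgeR adjusted p = 0.000623). Cyp2w1 had a lowest value of 16.1, a median of 35.3 and a highest value of 71.2 CPM and a lowest value of 7.74, a median of 12.2 and a highest value of 18.5 CPM (log2 fold change -1.63 with SE 0.28, edgeR adjusted p = 0.000492). Here again a single DMSO library, number 3, reached into the 4-OHT range. Cyp2c70 had 0.475 to 10.2 CPM and 0 to 0.0569 CPM (log2 fold change -8.83 with SE 1.02, edgeR adjusted p = 1.1e-05).

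Several abundant genes were called in spheroids only with the replicate block. Cyp2d26 had a lowest value of 48.8, a median of 136 and a highest value of 391 CPM with DMSO and a lowest value of 0, a median of 2.52 and a highest value of 86.6 CPM with 4-OHT, where libraries 1 and 3 stayed at 85.7 and 86.6 CPM. Its log2 fold change was -2.51 without the block (edgeR adjusted p = 0.16) and -4.66 (edgeR adjusted p = 0.00679) with it. The same libraries 1 and 3 held the highest Cyp4f14, Cyp3a13, Cyp2j6, Cyp4b1 and Cyp4f16 values among the 6 with 4-OHT. With the block Cyp3a11 was called at -3.94 (edgeR adjusted p = 0.0205), Cyp3a13 at -1.93 (edgeR adjusted p = 0.0163), Cyp2j6 at -2.02 (edgeR adjusted p = 0.00583), Cyp3a25 at -4.23 (edgeR adjusted p = 0.00517) and Cyp4f14 at -2.93 (edgeR adjusted p = 0.0437). Mature enterocyte markers summed to 1839 to 16768 CPM with DMSO and 115 to 12980.2 CPM with 4-OHT, and their part in these results was not tested. The 4-OHT effect differed between flox/flox and flox/+ spheroids for 3 of 36 members (8.33%, against 1.62% of all genes, 0.971% lower and 0.645% higher), Cyp2c70, Cyp2d10 and Cyp4f15, and for 14 with the block, where 18.3% of all genes were called, among them Cyp2c55 at -2.59 (edgeR adjusted p = 0.000143) and Cyp2b10 at -4.19 (edgeR adjusted p = 0.0141).

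In the A-485 organoids P450 genes moved in both directions at 3 and 5 µM and mostly down at 10 µM. At 3 µM 4 of 33 members rose and 11 fell (45.5%, against 19.2% of all genes tested, 10.8% higher and 8.42% lower). At 5 µM 6 rose and 16 fell (66.7%, against 49.6%, 24.4% higher and 25.1% lower), and at 10 µM 2 rose and 27 fell (87.9%, against 62%, 29.4% higher and 32.6% lower). The 3 comparisons share the 4 DMSO libraries. The median over the members was -0.76, -0.93 and -4.20 at 3, 5 and 10 µM, against 0.004, -0.021 and -0.049 over all genes. The summed level was 2814 to 5107 CPM with DMSO and 703 to 976 CPM at 10 µM. Eif4g2 had 1110.3 to 1711 CPM in all 16 libraries. Mature enterocyte markers summed to 11784 to 21381 CPM with DMSO, 6871 to 12375 CPM at 3 µM and 3637 to 6229 CPM at 10 µM, and fetal-like markers to 169 to 256 and 1796 to 2396 CPM with DMSO and at 10 µM. Crypt stem and transit markers fell in 4 of 10 at 3 µM and in 10 of 10 at 5 and 10 µM. At 10 µM Paneth and goblet markers fell in 8 of 8, tuft markers in 5 of 5 and enteroendocrine markers in 8 of 9. None of these rose at those doses, while pan-epithelial markers rose in 5 of 7 at 10 µM. The part of all these cell types in the P450 results was not tested.

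The 4 members that rose at 3 µM were Cyp2c55 and the Cyp3a genes Cyp3a11, Cyp3a13 and Cyp3a25. Cyp3a11 had 187, 501, 375 and 405 CPM in lines 1 to 4 with DMSO, 845, 2303, 2322 and 2544 CPM at 3 µM, 613, 1851, 1713 and 1427 CPM at 5 µM and 70.5, 166, 94.7 and 58.8 CPM at 10 µM. In each line it was highest at 3 µM and lowest at 10 µM. Its log2 fold change was 2.45 at 3 µM, 1.93 at 5 µM and -1.91 at 10 µM, with edgeR adjusted p-values of 0.00131, 0.00179 and 0.00138. Cyp2c55 had 51.00, 64.2, 51.8 and 102 CPM with DMSO, 298, 441, 430.3 and 375 CPM at 3 µM, 180.2, 344, 359.7 and 277 CPM at 5 µM and 14.4, 31.8, 16.8 and 7.31 CPM at 10 µM. All libraries at 3 and 5 µM lay above and all at 10 µM below the DMSO libraries, with changes of 2.52, 2.11 and -1.92 (edgeR adjusted p 0.000125, 0.000107 and 0.000192). Cyp3a13 rose at 3 µM (log2 fold change 1.40 with SE 0.26, edgeR adjusted p = 0.00121) and 5 µM (log2 fold change 1.56 with SE 0.26, edgeR adjusted p = 0.000102). It was not called at 10 µM, where it had 174, 223, 289.9 and 276 CPM against 219.5, 393, 269.9 and 279 CPM (log2 fold change -0.27 with SE 0.25, edgeR adjusted p = 0.37).

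Cyp3a25 had 56.4, 131, 113 and 115 CPM with DMSO and 118, 318, 371 and 382 CPM at 3 µM (log2 fold change 1.52 with SE 0.44, edgeR adjusted p = 0.0263). Each line was higher at 3 µM than with DMSO, but line 1 at 3 µM overlapped the DMSO range, and the call was lost in 6 of 8 fits with 1 library left out, with the highest adjusted p, 0.0816, without line 4 at 3 µM. At 5 µM it was not called without the line as a block (log2 fold change 1.01 with SE 0.44, edgeR adjusted p = 0.0702) and was called with it, at 0.91 (edgeR adjusted p = 0.0028), and at 10 µM it fell by 2.96. Cyp2c29 was likewise called higher only with the block, with an edgeR adjusted p of 0.0205 at 3 µM and at 0.86 (edgeR adjusted p = 0.045) at 5 µM, and it fell at 10 µM (log2 fold change -1.64 with SE 0.54, edgeR adjusted p = 0.0161), a call lost without DMSO line 4. Cyp2c65, in the same cluster as Cyp2c55, had 291, 476, 310.1 and 391 CPM with DMSO and 282, 363, 340.0 and 445 CPM at 3 µM, a log2 fold change of -0.04 that was not called. At 10 µM it had 12.2, 35.2, 22.5 and 8.98 CPM (log2 fold change -4.20 with SE 0.35, edgeR adjusted p = 2.96e-08). Cyp2c68 was called lower at 3 µM only with the block, at -1.43 (edgeR adjusted p = 0.00462), and fell by 1.92 at 5 µM and by 6.17 at 10 µM.

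The Cyp2d genes, Cyp2e1, Cyp2u1, Cyp2s1 and Cyp4a10 fell at each dose at which they were called. Cyp2d26 had 207, 378, 335 and 363 CPM with DMSO, 31.3, 96.8, 117 and 52.2 CPM at 3 µM, 12.5, 33.5, 45.1 and 21.8 CPM at 5 µM and 0.502, 1.95, 1.19 and 0.997 CPM at 10 µM. In all 4 lines each dose was below the one before, and the change was -2.11, -3.51 and -8.07 (edgeR adjusted p 0.00242, 1.01e-05 and 1.21e-08). Cyp2d9 had no read at 10 µM, at least 99.4-fold lower against 3 counts over the group. Cyp2e1 had 24.6, 26.5, 8.16 and 17.8 CPM with DMSO and 2.59, 6.36, 2.56 and 0.512 CPM at 3 µM (log2 fold change -2.67 with SE 0.70, edgeR adjusted p = 0.0121), and fell by 6.81 and 8.19 at 5 and 10 µM. By DESeq2 the 3 µM difference of Cyp2e1 did not pass (adjusted p = 0.0619). Cyp2s1 fell by 1.18, 1.37 and 4.79 and Cyp2u1, a fatty acid hydroxylase, by 2.60, 3.91 and 5.48 at 3, 5 and 10 µM. Cyp2b10 fell by 1.44 at 5 µM and by 4.61 at 10 µM, and at 3 µM was called only with the block, at -0.84 (edgeR adjusted p = 0.00418). Cyp4a10 had 1.77, 1.92, 1.45 and 4.72 CPM with DMSO and no read at 10 µM, at least 43.5-fold lower against 3 counts over the group. Its call at 3 µM (log2 fold change -3.65 with SE 1.01, edgeR adjusted p = 0.0196) was lost without DMSO line 4 or without line 2 at 3 µM.

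**Figure D3:**
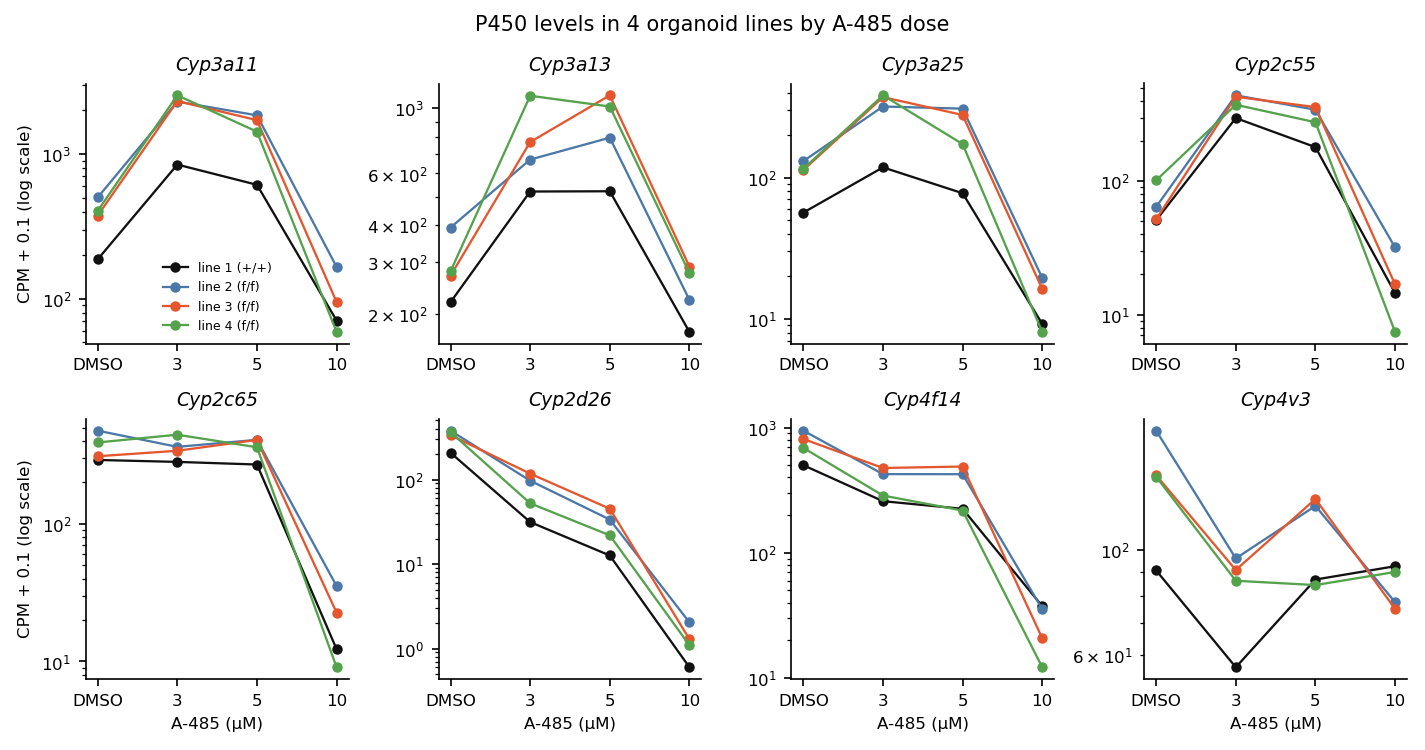
Levels of 8 P450 genes in the 4 organoid lines with DMSO or 3, 5 or 10 µM A-485, in CPM plus 0.1 on a log axis. Each line of points is an organoid line, with the Eif4g2(+/+) line in black, and the doses are evenly spaced; Cyp3a11 and Cyp2c55 are highest at 3 or 5 µM and low at 10 µM, whereas Cyp2d26 is lower at each higher dose.

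Among Cyp4f genes the response to A-485 was mixed. Cyp4f14 had 501, 946, 812 and 689 CPM with DMSO and 37.3, 35.4, 20.7 and 12.1 CPM at 10 µM (log2 fold change -4.79 with SE 0.40, edgeR adjusted p = 5.13e-08), without overlap. Its fall at 3 µM (log2 fold change -1.03 with SE 0.34, edgeR adjusted p = 0.0488) was lost in 6 of 8 fits with 1 library left out, with the highest adjusted p, 0.142, without line 4 at 3 µM. Cyp4f40 fell by 2.92, 4.23 and 7.85 at 3, 5 and 10 µM, whereas Cyp4f17 rose by 1.58 and 2.41 at 5 and 10 µM and Cyp4f13 by 0.50 at 5 µM (edgeR adjusted p = 0.00617). Cyp4f16 fell by 0.89, 0.61 and 0.83, with overlap, and the 5 µM call was lost without DMSO line 2. Cyp4v3 fell by 0.76 at 3 µM, a call lost without DMSO line 2, and by 0.73 at 10 µM. Cyp4b1 was not called at 3 or 5 µM and fell at 10 µM, with 38.5 to 50.5 CPM with DMSO and 3.10 to 9.66 CPM at that dose (log2 fold change -3.11 with SE 0.33, edgeR adjusted p = 2.98e-07). Cyp1a1 was called higher at 5 and 10 µM, at no more than 2.75 CPM in any A-485 library (log2 fold change 2.73 with SE 0.93, edgeR adjusted p = 0.0169), and these calls were lost without DMSO line 3 or 4 at 5 µM and without line 2 at 10 µM.

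**Figure D4:**
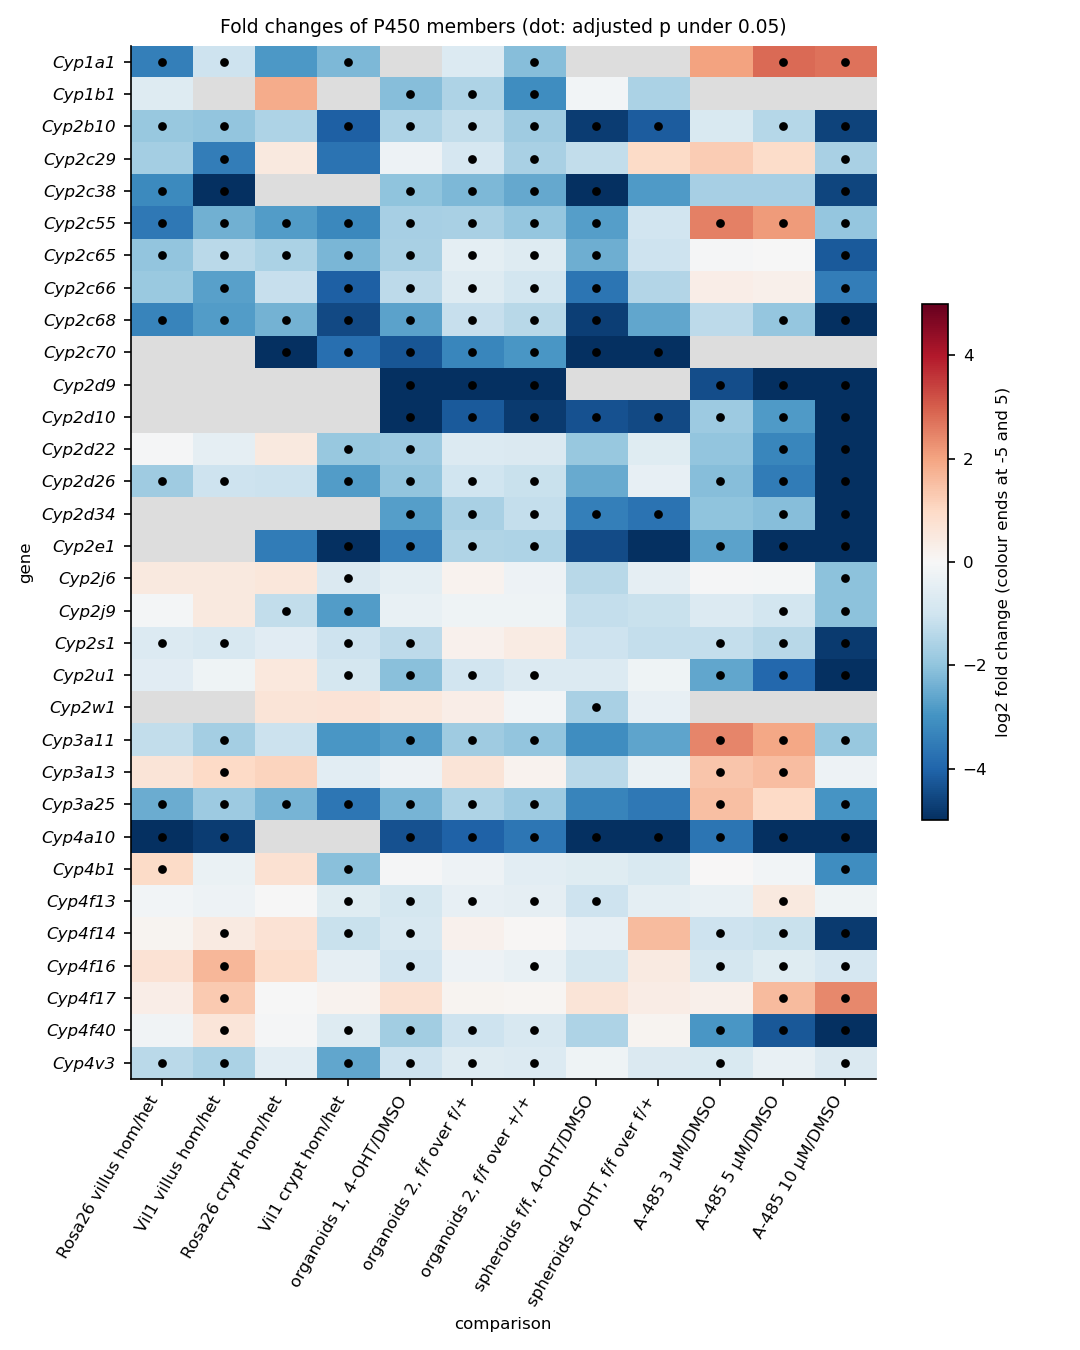
Log2 fold changes of 32 P450 genes (rows) in 12 comparisons (columns). Blue and red mark lower and higher levels with the colour ending at -5 and 5, a dot marks an edgeR adjusted p below 0.05 and grey marks genes not tested; Cyp2c and Cyp2d rows are lower with deletion, and the 3 and 5 µM A-485 columns differ from the deletion columns at Cyp3a11, Cyp3a13, Cyp3a25 and Cyp2c55.

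Receptors and some other regulators were read beside these genes. The list of xenobiotic and lipid receptors also held Arnt, Ahrr, Nfe2l2 and Keap1. Of this list 3 rose and 4 fell of 22 tested in Rosa26 villi, 4 rose and 5 fell in Vil1 villi, and 2 rose and 9 fell of 23 in the first organoid set, with medians of -0.10, -0.14 and -0.23. Of all genes tested 33.2, 42.5 and 35.4% were called there, and in villi the called share of the list was near that of all genes. Hnf4a rose in Rosa26 villi (log2 fold change 0.89 with SE 0.17, edgeR adjusted p = 0.00233) and in Vil1 villi (log2 fold change 0.43 with SE 0.15, edgeR adjusted p = 0.0376), the latter call lost without heterozygous animals 3 and 4 (adjusted p = 0.206). Nr1i2 was not called in Rosa26 villi (log2 fold change 0.00 with SE 0.13, edgeR adjusted p = 0.994) or Vil1 villi (log2 fold change -0.30 with SE 0.12, edgeR adjusted p = 0.0639), and fell by 0.70 in Vil1 crypts, by 0.75 in the first organoid set and by 0.95 in flox/flox spheroids. Nr1i3 fell by 1.01 in the first organoid set (edgeR adjusted p = 0.00757). Ahr was not called in villi, whereas Ahrr, the Ahr repressor and itself an Ahr target, fell in Vil1 villi (log2 fold change -2.08 with SE 0.40, edgeR adjusted p = 0.00116). Rxra, the partner of Nr1i2, Nr1i3 and Ppara, fell by 0.64 and 0.73 in Rosa26 and Vil1 villi (edgeR adjusted p = 0.0029 and 0.000369). Ppara fell in the first organoid set (log2 fold change -0.95 with SE 0.22, edgeR adjusted p = 0.0132) and not in villi. At 10 µM A-485, where 62% of all genes tested were called, 16 of the 22 fell and 3 rose. Among those that fell were Nr1i2 at -2.65, Hnf4a at -1.24 and Hnf4g at -3.24. At 3 µM, where Cyp3a11 was highest, Nr1i2 fell by 0.59 (edgeR adjusted p = 0.0306).

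Other genes of the same metabolism were read from lists. Of 7 electron donors to P450 enzymes, 1 rose and 3 fell in Rosa26 villi and 2 rose and 3 fell in Vil1 villi. Por rose in Vil1 villi (log2 fold change 0.98 with SE 0.15, edgeR adjusted p = 0.000195) and fell in the first organoid set (log2 fold change -1.07 with SE 0.17, edgeR adjusted p = 0.00296), and Cyb5a, cytochrome b5, fell in Rosa26 villi by 0.68 and in Vil1 villi by 1.34 (edgeR adjusted p = 0.00889 and 3.7e-06). Of the conjugation enzymes, which attach glucuronate, sulfate or glutathione to P450 products, 14 of 26 tested fell and 1 rose in Rosa26 villi, 15 fell and 4 rose in Vil1 villi, and 20 fell and 1 rose in the first organoid set, with medians of -0.95, -0.55 and -0.86. At 3 µM A-485 3 rose and 3 fell of 26, with a median of -0.06. The glucuronosyltransferase Ugt1a1 fell by 1.15 in Rosa26 villi, 1.26 in Vil1 villi and 1.70 in the first organoid set.

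The 22 fatty acid targets of PPAR receptors, read beside Cyp4a10, had 7 lower and 1 higher in Rosa26 villi, 10 lower and 1 higher in Vil1 villi, and 17 lower in the first organoid set. Their medians were -0.41, -0.38 and -1.04, and 33.2, 42.5 and 35.4% of all genes tested were called in these comparisons. In villi the called share of the list lay near that of all genes. Among P450 genes of other families, of 6 tested in Vil1 villi 3 rose and 1 fell, with Cyp51, the sterol demethylase of cholesterol synthesis, at 3.25 and Cyp20a1 at 1.83, and of 7 tested in Rosa26 villi 2 rose and none fell. Of the efflux and bile acid transporters 3 of 9 fell and none rose in Rosa26 villi, while 5 of 10 rose and 1 fell in Vil1 villi. The ileal bile acid carrier Slc10a2 was at -2.57 in Rosa26 and 3.66 in Vil1 villi, beside the Fabp6 values given above. Whether members and these lists differed from each other was not tested.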

How the data were processed

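The deposited tables hold raw counts per gene and library, per the labels, with a gene length in bases. The authors' reads came from poly(A)-selected, directional libraries per the labels' protocols, and the submitters' processing notes name HISAT2 2.0.5 and the builds GRCm38 and mm10. The counting program, its strand setting and its treatment of reads shared between genes were not given in the sources used here.

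Counts were tested with edgeR 4.0.16 in R 4.3.3 (filterByExpr, TMM scaling, robust quasi-likelihood F-test, Benjamini-Hochberg adjustment over all genes tested, called at an adjusted p below 0.05), with only the 2 groups in the fit for tissue, the first organoid set and spheroids against organoids, all libraries of the set for the second organoid set, spheroids and A-485, and all 4 groups for differences of effects. Library totals ran from 8652040 to 37611126 counts. Levels are CPM after TMM scaling within a set, and between genes CPM per kb of the deposited gene length. Groups overlap where any library of one lies within or beyond the range of the other. Scripts used Python 3.11.15, pandas 2.3.3, numpy 2.4.6 and matplotlib 3.10.9, and the fits were tested on simulated data. For the first organoid set, 58.3% of genes simulated with a log2 change of 1 were recovered among 15054 genes, and 94.6% of those with a change of 2. In that set 19 unchanged genes were also called, the most of the simulated comparisons. Recovery at a change of 1 was lower in flox/flox spheroids, at 38.6%, and in Rosa26 crypts, at 40.7%. It was highest, at 88%, for the second organoid set, flox/flox against flox/+.

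Genes reaching 1 CPM in a group were described. Full statistics were given for called genes without overlap, up to 6 largest rises and 6 largest falls with a mean of at least 5 CPM, and for a list of 23 genes wherever called, plus 10 regulators and markers and the largest changes of each list. Other genes and single differences were chosen after their values were seen. The members and lists were chosen with earlier results of these data known.

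Replicate numbers paired the libraries where they carry an animal or line identity in the library names (crypt with villus, A-485 lines, DMSO with 4-OHT of the same organoid culture). Spheroid libraries with DMSO and 4-OHT were paired by a shared culture name. The leading number of that name recurs between cultures, unevenly by genotype, and its effect on spheroid genotype comparisons was not tested. Spheroid pairs had deviation correlations of 0.385 to 0.783 (flox/flox) and 0.626 to 0.857 (flox/+). In the first organoid set they were 0.318 to 0.501. Alternatives were DESeq2 1.42.0, its size factors, no low-count filter, fits of only the compared groups or all groups, a replicate block, Y-linked transcripts or the animal series as covariate, and each library left out. Fits without Vil1 heterozygous animals 3 and 4, or with only those 2, were added after seeing the data. Promoter sequences are from RefSeq (GRCm38.p6).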

Additional observations from a re-analysis of the deposited data

Results flagged for a closer look

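Single libraries lay apart from the rest of their group in 22 of 320 sets of a gene and a group of 4 to 6 libraries, by Dixon's criterion, which flags about 1 in 20 sets by chance. With A-485, line 1 at 3 µM was low for Cyp2b10 at 45.8 CPM and for Cyp3a11 at 845 CPM. Line 2 at 10 µM was high for Cyp4b1 at 9.66 CPM, and line 4 with DMSO for Cyp4a10 at 4.72 CPM. In CreER-only organoids library 3 was high for Cyp2c65 at 237 CPM, Cyp2d26 at 235 CPM and Cyp3a25 at 113 CPM.

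In homozygous Rosa26 crypts library 1 was high for Cyp2c55 at 7.26 CPM, Cyp3a13 at 408 CPM and Cyp4f16 at 208 CPM, and library 5 for Cyp2e1 at 1.73 CPM and Cyp2w1 at 1.42 CPM. Homozygous Rosa26 villus 5 was high for Cyp2c29 at 240.3 CPM and Cyp2j6 at 1549.9 CPM. Vil1 heterozygous villus 4 was high for Cyp2c55 at 749.9 CPM and Cyp4v3 at 1928 CPM. In flox/flox spheroids DMSO library 5 was high for Cyp2b10 at 87.0 CPM, Cyp2c29 at 54.2 CPM and Cyp3a11 at 92.2 CPM, and 4-OHT library 3 for Cyp3a11 at 13.6 CPM and Cyp3a25 at 3.53 CPM. In flox/+ spheroids with 4-OHT library 5 was high for Cyp4a10 at 4.70 CPM.

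The deletion effect differed between villus and crypt for 1 gene of the Rosa26 set, Cyp4a10, by -4.86 on the log2 scale, a call lost without homozygous crypt 5 (edgeR adjusted p = 0.678). In the Vil1 set the effect in villi minus that in crypts was 1.74 for Cyp2c68, 1.47 for Cyp2d22, 1.76 for Cyp2d26, 1.21 for Cyp2j6, 3.29 for Cyp2j9, 1.56 for Cyp3a13 and 1.83 for Cyp3a25. It was 4.36 for Cyp4a32, 1.77 for Cyp4b1, 1.57 for Cyp4f14, 6.30 for Cyp4f15, 2.12 for Cyp4f16, 1.27 for Cyp4f40 and -6.10 for Cyp3a44. Without heterozygous animals 3 and 4 the differences of Cyp2j9, Cyp4f16 and Cyp4f40 kept their calls and the other 11 did not, with edgeR adjusted p-values of 0.0572 (Cyp4f14) to 0.228 (Cyp2j6). Without homozygous crypt 1 or 2 the count fell from 14 to 7, and Cyp3a44 lost its call without homozygous crypt 3 (edgeR adjusted p = 0.895).

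In spheroids the 4-OHT effect in flox/flox minus that in flox/+ was -8.00 for Cyp2c70, -4.78 for Cyp2d10 and -6.33 for Cyp4f15. The difference of Cyp2d10 lost its call in 10 of 22 fits with 1 library left out, with the highest adjusted p, 0.068, without flox/+ 4-OHT library 3.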

How the results depend on the processing

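Of 232 pairs of a named gene and a comparison in which it was called, 191 stayed called in every fit with 1 library left out and 173 in every alternative run, and none reversed. Counts of members called moved by over 1.5 times in these cases, of which the cause was not tested. The share of all genes called in the same fit is given only where it stands in the results above. Without that share, a count in this paragraph does not tell a change of the members from a change of the whole fit. In Rosa26 crypts the 8 became 14 by DESeq2 and 4 to 13 with 1 library left out. For the Rosa26 difference between villus and crypt the 1 became 2 by DESeq2, 0 with no low-count filter and 1 to 2 with 1 library left out. In Vil1 crypts the 24 became 14 to 25 with 1 library left out. For the Vil1 difference the 14 became 7 to 17, and 3 without heterozygous animals 3 and 4. For flox/+ against CreER-only organoids the 1 became 2 by DESeq2 and 0 to 1 with 1 library left out. In flox/flox spheroids the 16 became 30 with the replicate block and 8 with only the 2 groups, where fewer libraries estimate the spread. With 4-OHT, flox/flox against flox/+ spheroids went from 8 to 3 with only the 2 groups. The 4-OHT difference between spheroid genotypes went from 3 to 8 by DESeq2, 14 with the replicate block and 1 to 6 with 1 library left out. Where numbers pair the libraries, the block ended no call of a named gene other than that of Cyp4a32 in Vil1 crypts against villi and, for the Vil1 difference between villus and crypt, those of Cyp2j6 and Cyp3a25 (edgeR adjusted p = 0.101 and 0.0724). Where the numbers are only numbers, the block gave 8 members in Rosa26 crypts, 20 in Rosa26 villi, 20 in Vil1 crypts, 25 in Vil1 villi, and 23 and 26 for flox/flox organoids against flox/+ and CreER-only. With Y-linked transcripts as covariate, Rosa26 crypts and villi had 6 and 16 members called, the 6 all higher and resting on the 1 homozygous crypt library with such transcripts. Genes under 1 CPM, 28 of the 81, were mostly not testable at this depth.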
